A study of Mus musculus with 12 samples.

Results

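The dose step examined here set 1 RNA-seq library of fibroblasts given lentiviral Myf5 at the dose labelled 2x against 1 library given the same virus at 1x, with 1 library given GFP virus at 1x as the baseline level. These 3 of the 12 libraries of the series were chosen by their labels. All cells were mouse embryonic fibroblasts of the genotype MyoD-/-; Myf5-/-, so the controls also lack both factors. They were infected in the presence of polybrene, moved after 24 h to differentiation medium, and harvested 20 h later. The libraries were made from oligo-dT selected RNA. The promoter that drives the introduced gene, the number of cultures behind a library and the relation of 1x to a multiplicity of infection (MOI, infectious particles added per cell) are not given in the sources used here. A further 7 libraries of the same table served as reference: MyoD virus at 1x and 2x, GFP virus at an MOI of 15, 30, 60 and 120, and cells without virus. Chimera and a second batch of MyoD virus were not analysed here.

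Myf5 and MyoD are basic helix-loop-helix transcription factors that commit cells to skeletal muscle. They pair with E proteins on E-box sequences, recruit chromatin cofactors and switch on myogenin, which with Mef2 factors drives the genes of fusion, the neuromuscular synapse and the sarcomere. Interferon-stimulated genes are a separate program: cytoplasmic sensors of foreign nucleic acid induce type I interferon, which acts through its receptors on antiviral effector genes. Virus dose and factor dose were raised together in the 2x library, so within this pair of libraries their contributions cannot be told apart.

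The sequence elements through which each program is known to act are shown for 5 promoters of genes described below, chosen after their values were seen. Each line gives the 250 bases before the annotated start, 5′ to 3′ on the strand of the gene, from RefSeq on GRCm38.p6. In the first pair, the antiviral genes Oas1a (chr5:120907526-120907775, minus strand) and Isg15 (chr4:156200819-156201068, minus strand), capitals mark matches of GAAA, any 2 bases and GAAA again, the core of the interferon-stimulated response element. In the other three, Myog (chr1:134289754-134290003, plus strand), Chrng (chr1:87205561-87205810, plus strand) and Mylpf (chr7:127211358-127211607, plus strand), capitals mark matches of the E-box CANNTG.
Oas1a: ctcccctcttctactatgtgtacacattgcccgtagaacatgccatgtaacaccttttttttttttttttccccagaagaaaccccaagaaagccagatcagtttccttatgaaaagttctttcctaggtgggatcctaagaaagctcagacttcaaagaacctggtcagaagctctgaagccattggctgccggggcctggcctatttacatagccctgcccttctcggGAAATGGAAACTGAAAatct
Isg15: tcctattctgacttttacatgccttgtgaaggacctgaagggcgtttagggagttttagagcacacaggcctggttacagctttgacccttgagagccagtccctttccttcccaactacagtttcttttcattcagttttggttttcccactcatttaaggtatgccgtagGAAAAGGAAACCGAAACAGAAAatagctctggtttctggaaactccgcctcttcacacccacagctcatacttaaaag
Myog: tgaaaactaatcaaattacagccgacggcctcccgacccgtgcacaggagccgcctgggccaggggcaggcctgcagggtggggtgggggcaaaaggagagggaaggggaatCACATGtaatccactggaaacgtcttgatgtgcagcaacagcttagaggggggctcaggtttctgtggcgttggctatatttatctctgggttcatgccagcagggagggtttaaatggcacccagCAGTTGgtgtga
Chrng: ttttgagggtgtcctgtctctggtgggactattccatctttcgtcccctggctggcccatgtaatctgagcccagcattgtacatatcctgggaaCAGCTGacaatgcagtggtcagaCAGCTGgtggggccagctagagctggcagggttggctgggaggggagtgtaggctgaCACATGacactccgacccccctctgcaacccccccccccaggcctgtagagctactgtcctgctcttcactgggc
Mylpf: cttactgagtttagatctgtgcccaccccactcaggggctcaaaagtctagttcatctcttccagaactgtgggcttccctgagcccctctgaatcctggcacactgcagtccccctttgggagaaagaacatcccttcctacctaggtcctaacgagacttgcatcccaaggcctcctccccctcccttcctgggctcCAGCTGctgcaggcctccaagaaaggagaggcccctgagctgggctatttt
The Oas1a promoter held 2 overlapping matches that began 20 and 14 bases before the start, and that of Isg15 held 3, at 78, 72 and 66 bases. The Myog promoter held E-boxes 138 and 12 bases before the start, that of Chrng held 3, of which 2 read CAGCTG, and that of Mylpf held 1 CAGCTG 51 bases before the start.

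Total counts were 68.3 M in the 1x Myf5 library, 68.5 M in the 2x Myf5 library and 81.5 M in the 1x GFP library, and 17.9 to 80.6 M in the other libraries. Levels are given as CPM (counts scaled to a common library total), which are not scaled to gene length and so compare libraries, not genes. Each dose is 1 library, so no ratio has a replicate check and no test was possible. The 95% intervals are exact binomial intervals that cover counting error only. A gene is counted as higher or lower when its ratio, with a prior count of 2, was at least 2-fold and its interval lay on that side of 1, among the 14606 genes with at least 50 counts over the pair. The defining fibroblast genes checked were all present at both doses, and Emcn, Cldn5, Adgre1, Adipoq, Plin1, Lep, Nkx2-5, Tbx5 and Hand1, which mark endothelium, macrophages, fat and heart, were at 0 in the 3 libraries. Other markers of these cell types were detected. Of 46 marker genes of 6 other cell types, 15 reached 50 counts over the pair and 0 were higher, where 1.51% of all genes were. The summed level of the 10 macrophage and leukocyte markers was 29.7 CPM with GFP, 29.6 at 1x and 28.0 at 2x. Endothelial markers summed to 5.63, 10.1 and 10.5 CPM, and those of neuron and glia to 48.1, 63.3 and 63.0. The sums of epithelial, fat and heart markers were lower at 2x than with GFP.

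The label of the dose was first set against the introduced gene. Myf5 was at 17.2 CPM with 1x GFP, 149.5 CPM with 1x Myf5 and 249 CPM with 2x Myf5. The 2x level was 1.67 times the 1x level (1.63 to 1.71), and the gain over the GFP library was 1.75 times as large at 2x as at 1x. In the MyoD pair the same gain in Myod1 counts was 2.01 times as large at 2x. Part of the Myf5 counts are deposited as fractions, as for genes that share reads with another, and the counts in the GFP library lie in cells labelled null for the gene, so transcripts of the null allele are not separated from those of the virus. Of the other factors of the family, Myog was higher and is described with its list. Myod1 was not, at 5.62 CPM with GFP, 5.36 at 1x and 5.21 at 2x, and Myf6, with 13 counts at 1x and 10 at 2x, had too few to be compared.

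At the doubled dose 221 genes were higher (1.51% of those compared) and 68 were lower (0.466%). Muscle genes and interferon-stimulated genes were both among the higher ones, with 31 of 108 muscle-list genes and 64 of 126 interferon-list genes counted. Against the GFP library, 287 genes were higher (1.95%) and 78 lower (0.531%) with 1x Myf5, and 536 were higher (3.65%) and 283 lower (1.93%) with 2x Myf5. These contrasts share that library. Of the muscle lists 37 of 97 genes were higher than GFP at 1x and 61 of 107 at 2x, and of the interferon lists 56 of 122 and 91 of 125.

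Of the lists of other programs (Notch and Id genes, matrix, smooth muscle, cell cycle, p53 targets, protein stress, cholesterol synthesis and serum response), 0 of 156 members were higher and 2 were lower. Over all genes compared the shares were 1.51% and 0.466%, so few calls are to be looked for among 156 genes.

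**Figure D1:**
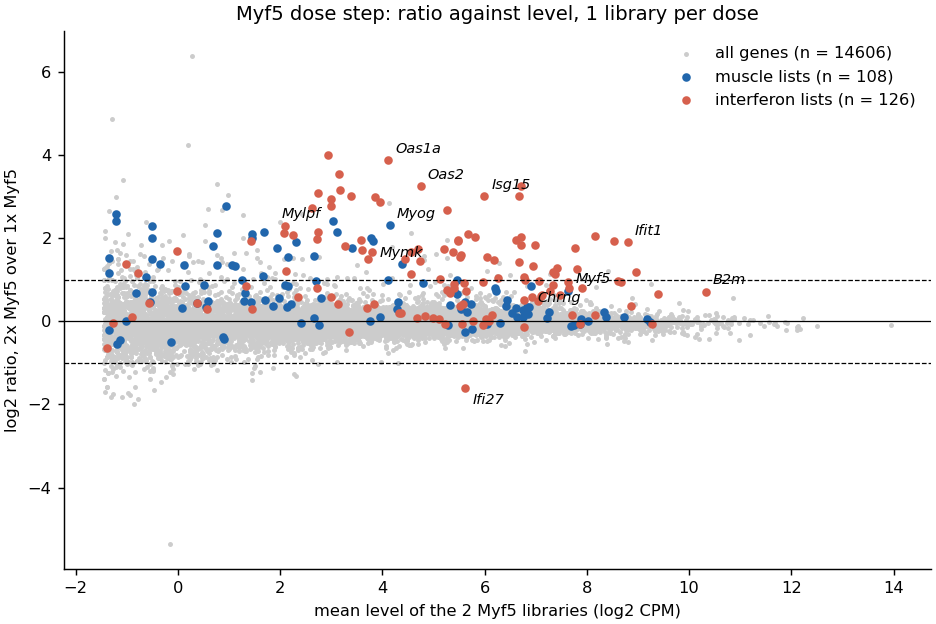
Log2 ratio of 2x over 1x Myf5 (vertical) against the mean log2 CPM of the 2 libraries (horizontal) for the 14606 genes compared, with 108 muscle-list genes in blue and 126 interferon-list genes in red; dashed lines mark 2-fold. Both coloured groups reach above the upper line, while Myf5 itself lies under it and Ifi27 lies below the lower line.

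Among the myogenic transcription factors, Myog was the member with the largest ratio. Myogenin drives terminal differentiation downstream of the determining factors. Myog was at 0.503 CPM with GFP, 5.91 at 1x and 29.4 at 2x, a ratio of 4.97 (4.46 to 5.54). Its gain over GFP was 5.33 times as large at 2x as at 1x, against 1.75 times for Myf5. In the MyoD pair Myog went from 270.3 to 763 CPM, a gain 2.83 times as large, so the 2x Myf5 library stayed far below either MyoD library. Rbm24, an RNA-binding protein of muscle splicing, was at 0.0491, 0.703 and 2.53 CPM with GFP, 1x and 2x, a ratio of 3.59 (2.60 to 5.06).

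The remaining factors differed by less than 2-fold. Mycl, a Myc family factor, was at 1.14 CPM with GFP, 29.8 at 1x and 58.9 at 2x, a ratio of 1.98 (1.87 to 2.09). The E proteins that pair with Myf5 were close to level across the pair, with Tcf12 at 413 and 439.8 CPM, Tcf4 at 239.6 and 229 and Tcf3 at 215 and 199. Over the 18 factors compared, 2 were higher, the median log2 ratio was 0.30 and 13 had an interval above 1. Of all 14606 genes, 3552 had an interval above 1.

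Genes of the acetylcholine receptor were already high at 1x and gained less than 2-fold. Chrng, the fetal gamma subunit, was at 1.96 CPM with GFP, 85.0 at 1x and 154 at 2x, a ratio of 1.81 (1.75 to 1.87). Chrnd, the delta subunit, was at 0.405, 32.1 and 52.7 CPM, and Chrnb1, the beta subunit, at 4.71, 34.0 and 53.6 CPM. Both lay far above GFP at either dose. Dok7, the adaptor that activates the receptor kinase MuSK, was the 1 of 8 members counted as higher, at 0.0736, 0.469 and 3.39 CPM, a ratio of 7.23 (4.98 to 10.8). Agrn, the nerve-derived organizer of the synapse, was at 47.5, 56.2 and 93.4 CPM, and its level with MyoD was 47.1 and 45.8 CPM at 1x and 2x. The mean of Agrn over the 4 GFP MOI libraries was also above the untransduced level, by 1.66 on the log2 scale.

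Of the genes that couple excitation to contraction, 4 of 14 were higher. Ryr1, the calcium release channel of the sarcoplasmic reticulum, was at 0.393, 3.18 and 9.48 CPM with GFP, 1x and 2x, a ratio of 2.98 (2.55 to 3.49). Pvalb, a calcium buffer, was at 0.0491, 2.25 and 6.64 CPM, a ratio of 2.95 (2.45 to 3.56). Jsrp1, a partner of that channel complex, went from 1.16 to 3.01 CPM, and Casq2, a calsequestrin, from 0.351 to 1.05 CPM. Atp2a2, a calcium pump that fibroblasts also make, was at 277, 296 and 347 CPM.

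Myoblast fusion was represented by its 2 dedicated membrane proteins. Mymk (myomaker) was at 0.110 CPM with GFP, 5.80 at 1x and 22.3 at 2x, a ratio of 3.85 (3.45 to 4.31). Mymx (myomixer) was at 0.307, 4.38 and 8.61 CPM, a ratio of 1.97 (1.71 to 2.27), and was not counted. Cdh15, the cadherin of muscle precursors, was at 0.245, 19.2 and 36.3 CPM, a ratio of 1.89 (1.77 to 2.02). The widely expressed adhesion genes of the list differed little, with Cdh2 at 232 and 241 CPM, Ncam1 at 108 and 122 and Myof at 608 and 598. In all 1 of 13 members was higher.

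The sarcomere list held most of the higher muscle genes, 20 of 41, with a median log2 ratio of 0.99 against a value near 0 over all genes. Mylpf, the fast myosin regulatory light chain, was at 0.380 CPM with GFP, 2.58 at 1x and 13.7 at 2x, a ratio of 5.32 (4.52 to 6.29). Unc45b, the chaperone that folds myosin, was at 0.196, 1.16 and 5.23 CPM, a ratio of 4.52 (3.53 to 5.84). Chosen after their values were seen, Actc1 (cardiac actin, also the early actin of skeletal muscle) was at 0.331, 3.21 and 14.2 CPM and Tnnt2 (a troponin T) at 0.846, 5.48 and 21.9 CPM. For these 4 genes the 1x library lay above GFP and the 2x library lay 4 to 5.32 times higher again. Trim54 and Lmod3 had the largest ratios of the list, 7.41 (3.35 to 19.3) and 6.36 (2.99 to 15.5), from 0.102 and 0.117 CPM at 1x. The broadly expressed tropomyosins differed little, with Tpm1 at 572 and 589 CPM, Tpm2 at 142 and 164 and Tpm3 at 319.8 and 341.

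Energy genes of muscle added 3 of 14. Ckm, muscle creatine kinase, had no count with GFP and stood at 0.220 CPM at 1x and 1.18 at 2x, a ratio of 5.38 (3.08 to 10.1). Mb (myoglobin) was at 0.190 and 0.599 CPM and Pygm (muscle glycogen phosphorylase) at 1.22 and 3.10. Over all muscle lists 53 of 161 members had fewer than 50 counts over the pair and were not compared. A gene near 0 at 1x could pass that minimum only through the 2x library. With at least 25 counts required at 1x, 24 of 101 were higher, and the median log2 ratio was 0.46 in place of 0.49.

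The levels were also read against MyoD at 1x, for the 69 muscle genes that were at least 2-fold above GFP there (4.07% of all genes compared were). Their median level was 17.6% of the 1x MyoD level in the 1x Myf5 library and 35.1% in the 2x Myf5 library, and 67 of the 69 had more CPM at 2x than at 1x by any margin. Of all genes compared, 49.4% had a log2 ratio above 0. The 69 genes had at least 50 counts over the Myf5 pair, so one near 0 at 1x could enter only through the 2x library. That selection favours the 2x library in this count and in the medians. Sarcomere genes were at a median of 7.5% and 24.3%, and receptor and synapse genes at 38.6% and 62.5%. The receptor and synapse list, which lay nearer to the MyoD level at 1x, had a median log2 ratio of 0.69 between the doses, against 0.99 for the sarcomere. In bulk RNA a larger share of cells that respond and more RNA per responding cell cannot be told apart.

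**Figure D2:**
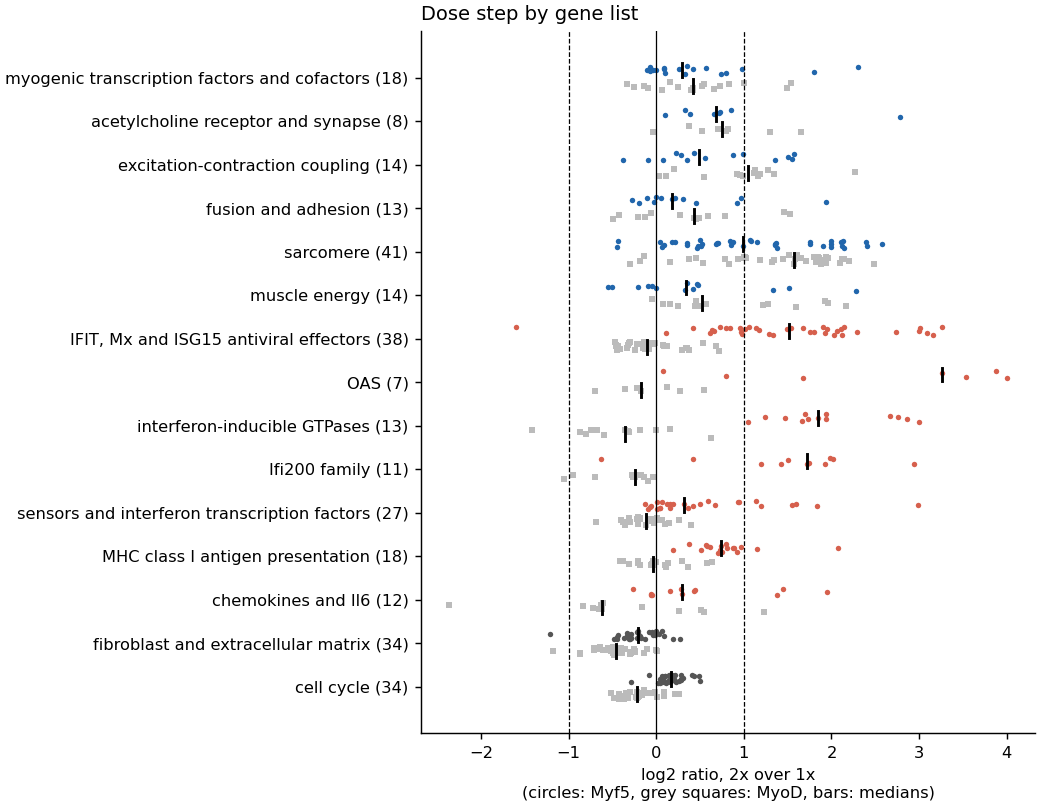
Log2 ratio of 2x over 1x for each gene with at least 50 counts over the Myf5 pair, by list (number of genes in parentheses), with Myf5 as coloured circles, MyoD as grey squares, medians as bars and 2-fold as dashed lines. The sarcomere medians lie right of 0 for both factors, and the medians of the 7 interferon lists lie right of 0 for Myf5 and left of 0 for MyoD.

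Of the 2 kinds of list, the interferon lists held more of the higher genes. Their members make up 29.0% of the 221, against 14% for the muscle lists, and 126 of the 221 lie in neither. These shares depend on the lists, which hold 126 and 108 of the 14606 genes compared. Of the members matched, 11 of 137 and 53 of 161 had too few counts to be compared. Oas1a and its relatives are antiviral enzymes that make oligoadenylate. Oas2 was at 0.319 CPM with GFP, 5.07 at 1x and 48.6 at 2x, a ratio of 9.6 (8.59 to 10.8). Oas3 was at 0.282, 1.39 and 16.4 CPM, a ratio of 11.8 (9.57 to 14.7), and Oas1a was at 0.393, 2.18 and 32.5 CPM, a ratio of 14.9 (12.6 to 17.7). In this list 5 of 7 genes were higher and the median log2 ratio was 3.26. Oas1a, Oas1b and Oas1g have near-identical copies and fractional counts, so the split among them is uncertain.

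Of the IFIT, Mx and ISG15 group, 26 of 38 genes were higher and 1 was lower. Oasl2, an OAS-like protein, was at 3.30 CPM with GFP, 19.7 at 1x and 189 at 2x, a ratio of 9.6 (9.07 to 10.2). Rsad2 (viperin) was at 0.0859, 1.39 and 12 CPM, a ratio of 8.64 (6.98 to 10.8). Isg15, the ubiquitin-like modifier, was chosen after its values were seen and was at 2.99, 14.1 and 113 CPM. Each of these 3 lay above GFP at 1x and was 8.03 to 9.6 times higher again at 2x. Ifit1, which binds viral RNA caps, was at 28.6, 188 and 704 CPM, a ratio of 3.75 (3.68 to 3.82), and Bst2 (tetherin) at 28.6, 110.3 and 459 CPM. The summed level of the list was 1274 CPM with GFP, 2553 at 1x and 6299 at 2x, against 1353 and 1250.3 CPM in the MyoD libraries. Ifi27, singled out after its value was seen, went the other way, at 84.6 CPM with GFP, 74.0 at 1x and 24.4 at 2x, a ratio of 0.330 (0.312 to 0.348). It was at 78.0 and 73.2 CPM with MyoD and at 42.1 CPM with GFP at an MOI of 120.

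All 13 interferon-inducible GTPases compared were higher, with a median log2 ratio of 1.84. Iigp1, which attacks the vacuoles of intracellular parasites, was at 1.8 CPM with GFP, 10.3 at 1x and 66.0 at 2x, a ratio of 6.39 (5.90 to 6.92). Gbp3, a guanylate-binding protein, was at 14, 45.9 and 165 CPM. Of the Ifi200 family of DNA-binding proteins, 9 of 11 were higher, with Ifi204 at 17.3, 41.5 and 168 CPM. Of the 126 interferon-list genes compared, 52 carry fractional counts, among them most of these 2 families and the classical MHC genes, so the level of a single copy is uncertain.

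Of the sensors and transcription factors of the pathway, 6 of 27 were higher. Irf7, the amplifier of the interferon response, was at 15.9, 55.5 and 199 CPM with GFP, 1x and 2x, a ratio of 3.58 (3.45 to 3.71). Stat2, a transcription factor that interferon receptors activate, was at 150.3, 278 and 531 CPM, a ratio of 1.91 (1.88 to 1.94). Zbp1, a sensor of left-handed nucleic acid, had the largest ratio of the 27, 8.00 (6.95 to 9.24), and the helicases Ifih1 and Dhx58 went from 23.4 to 68.6 and from 23.1 to 69.9 CPM. The kinase Jak1, by contrast, was at 263, 239.8 and 228 CPM. Ifnb1, the interferon gene itself, was chosen after its values were seen and had 0, 2 and 21 counts with GFP, 1x and 2x, a ratio of 10.5 with an interval from 2.56 to 92.1, below the 50 counts asked of the genes compared.

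Antigen presentation and chemokines differed less between the doses. B2m, the invariant chain of MHC class I, was at 712, 976 and 1597 CPM, a ratio of 1.64 (1.62 to 1.65), and H2-D1 was at 201, 266 and 520.5 CPM. All 18 genes of this list had an interval above 1, against 3552 of all 14606 genes. Only 2 were 2-fold higher, of which Psmb8, an immunoproteasome subunit, went from 1.82 to 7.74 CPM. Of the 12 chemokine and cytokine genes, the interferon-responsive Ccl5 (18.4 to 71.3 CPM), Cxcl10 (14.3 to 39.0) and Cxcl11 (0.264 to 0.730) were higher. Ccl2, at 869, 631 and 605 CPM, and Cxcl1, at 69.6, 47.9 and 46.1 CPM, were not. With at least 25 counts required at 1x, 62 of 124 interferon-list genes were higher, and the median log2 ratio was 1.00 in place of 1.03.

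To separate the 2 programs without using a Myf5 library, the 221 higher genes were sorted by a pair of outside ratios. A gene was called MyoD-raised when 1x MyoD was at least 2-fold above 1x GFP (4.07% of the genes compared), and virus-raised when the mean of the GFP libraries at an MOI of 15 to 120 was at least 2-fold above the untransduced library (5.54%). Of the 221, 76 (34.4%) were MyoD-raised only, 103 (46.6%) virus-raised only, 23 (10.4%) both and 19 (8.6%) neither. Over all 14606 genes these shares were 3.44%, 4.91%, 0.63% and 91%. The split depends on the settings. With at least 25 counts required at 1x, 47 were MyoD-raised only, since the others passed the minimum through the 2x library, where they are high. An unscaled prior count gave 44 MyoD-raised only and 55 in both, and sorting by 2x MyoD over untransduced cells gave 66 virus-raised only and 60 in both. The lists were chosen with earlier results of these data known, so their place in the sorting is no independent check. Of all members compared, 69 of 108 muscle genes were MyoD-raised and 98 of 126 interferon genes were virus-raised. Among the higher genes, 30 of the 31 muscle genes were MyoD-raised and all 64 interferon genes were virus-raised. Named after their values were seen, Ttn, Klhl41 and Trim63 were the muscle genes in both classes, and Myh7, at 0.234 and 0.555 CPM, was in neither. Of the interferon genes, 10 were also MyoD-raised, of which Rsad2, at 0.0859 CPM with GFP and 1.73 CPM with 1x MyoD, stood farthest out. These sorting ratios carry no interval requirement, so a gene of few counts can be misplaced. Nor does virus-raised require a rise with MOI. Kera, a matrix gene in that class but not among the 221, was at 6.34 CPM untransduced and 7.07 with 1x GFP. At an MOI of 15, 30, 60 and 120 it was at 25.7, 22.6, 20.0 and 21.7 CPM. In the other direction, Eno3 of the muscle energy list was at 54.4 CPM untransduced and 55.6 with 1x GFP. In the 4 MOI libraries Eno3 was at 22.2 to 24.2 CPM. A difference between the MOI libraries as a set and the other libraries cannot be told apart from virus in this ratio. Of the 221 genes, those virus-raised only rose by any margin in 81 of 82 compared from an MOI of 15 to 30. From 30 to 60 it was 78 of 93, and from 60 to 120, 95 of 99. Over all genes compared in these steps, 48.8%, 51% and 48% had a log2 ratio above 0. The same MOI libraries define the class, and a low gene could pass the count minimum through the higher MOI. These counts are therefore not independent of the sorting.

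**Figure D3:**
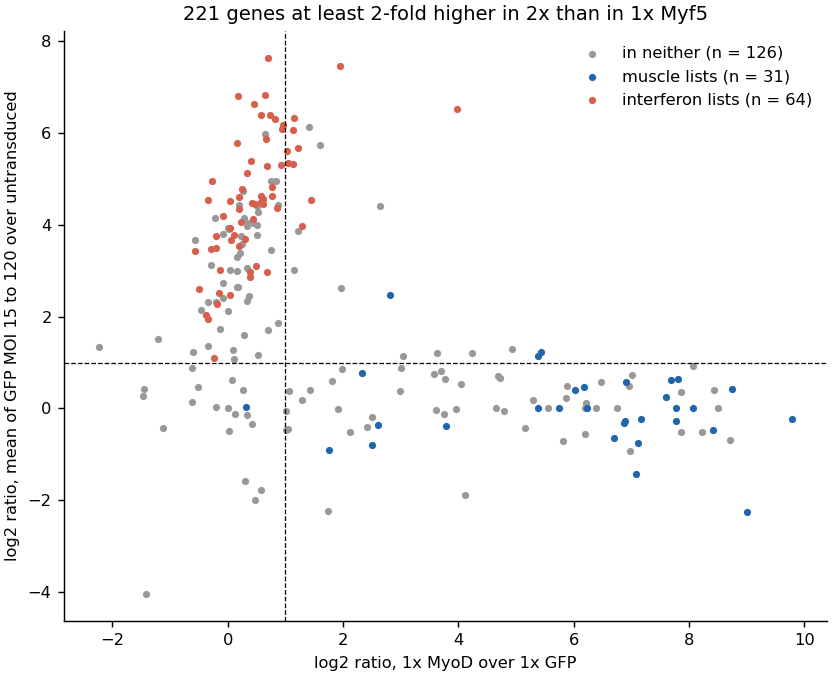
The 221 genes higher in 2x than in 1x Myf5, placed by the log2 ratio of 1x MyoD over 1x GFP (horizontal) and of the mean of GFP at MOI 15 to 120 over untransduced cells (vertical), with muscle-list genes in blue, interferon-list genes in red, other genes in grey and 2-fold as dashed lines. The 64 interferon genes all lie above the horizontal line, and 30 of the 31 muscle genes lie right of the vertical line.

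The other 126 of the 221 genes lay in neither kind of list and split evenly, with 49 MyoD-raised only, 49 virus-raised only, 10 both and 18 neither. The examples that follow were chosen after their values were seen, apart from Hfe2. On the MyoD side, Nes (nestin, an intermediate filament of precursors) was at 6.33 CPM with GFP, 16.2 at 1x and 50 at 2x, and Sox8, a Sox family factor, at 0.172, 6.41 and 16.4 CPM. Hfe2 (hemojuvelin, a muscle and liver coreceptor) had 0, 6 and 150 counts, a ratio of 24.9 (11.2 to 69.0). Each of these 3 was higher still with 1x MyoD, at 87.1, 82.0 and 8.92 CPM. On the virus side, Lgals3bp, a secreted glycoprotein, was at 76.1, 206 and 473 CPM, and Ube2l6, the conjugating enzyme for Isg15, at 26.3, 42.3 and 112 CPM. With 1x and 2x MyoD, Lgals3bp was at 85.1 and 102 CPM and Ube2l6 at 24.8 and 22.9 CPM. With GFP at an MOI of 120 both were above their 2x Myf5 level, at 626 and 159 CPM.

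The MyoD dose pair shares no library with the Myf5 pair. In it 341 genes were higher (2.29%) and 134 lower (0.901%). The genes sorted as MyoD-raised only had a median log2 ratio of 1.44 with MyoD dose, where 56 of 75 were higher. Those sorted as virus-raised only had a median of -0.12, with 1 of 84 higher. Since the 1x MyoD library is used to define both classes, neither of these ratios is independent of the sorting. Of the muscle lists 59 of 126 were higher with MyoD dose and the median was 0.95, and of the interferon lists 0 of 118 were higher, 3 were lower and the median was -0.17. Across 107 muscle genes the log2 ratios of the Myf5 and the MyoD pair had a Pearson r of 0.72 and a Spearman rho of 0.73, and across 118 interferon genes 0.19 and 0.21. Across all 14407 genes compared in both pairs these were 0.38 and 0.39. Genes are not independent replicates, and low-count genes carry the larger counting error in both pairs.

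**Figure D4:**
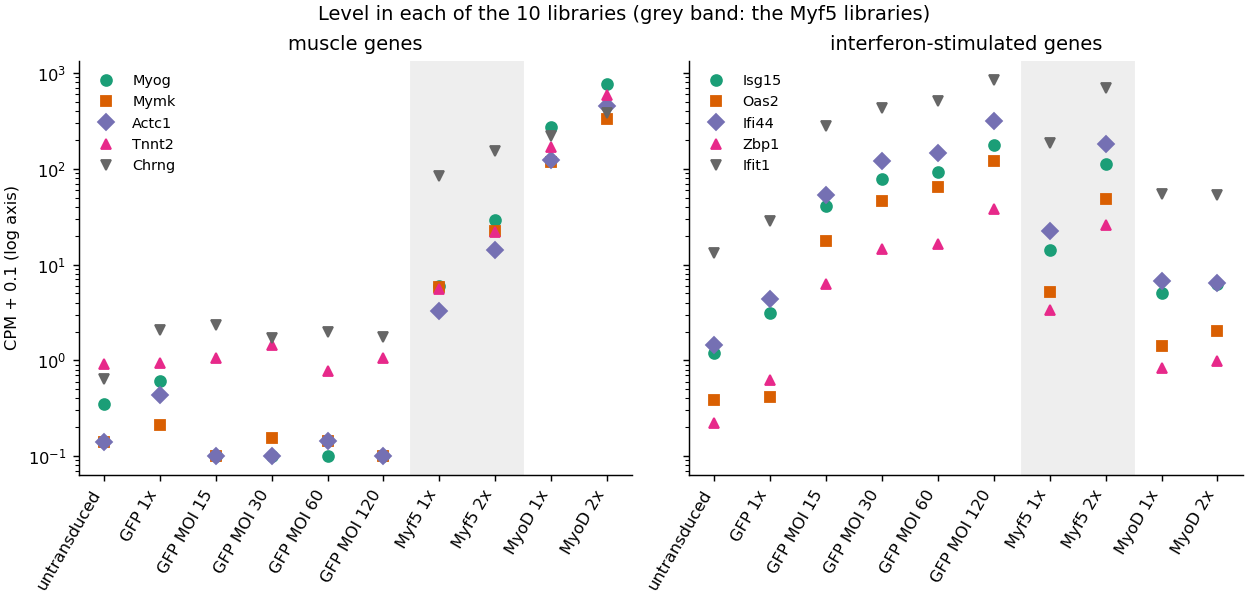
CPM plus 0.1 on a log axis in each of the 10 libraries for 5 muscle genes (left) and 5 interferon-stimulated genes (right), with the Myf5 libraries in the grey band. The muscle genes are highest with MyoD and low in every GFP library, and the interferon genes at 2x Myf5 lie among the GFP libraries at an MOI of 15 to 120 and are low with MyoD.

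The GFP MOI series gave a scale for the interferon response. From untransduced cells to an MOI of 120, 783 genes were higher (5.61%) and 572 lower (4.1%), and 100 of 124 interferon-list genes were among the higher. For 98 virus-raised genes of the interferon lists, the library among untransduced, 1x GFP and the 4 MOI libraries whose log2 level was nearest was found. With 1x Myf5 the nearest was an MOI of 15 for 63 genes and 1x GFP for 30. With 2x Myf5 it was an MOI of 15, 30, 60 or 120 for 16, 31, 36 and 10 genes and 1x GFP for 5. With 1x MyoD it was 1x GFP for 77. The median log2 difference of the 2x Myf5 library was 0.03 to an MOI of 30, -0.08 to an MOI of 60 and 2.64 to 1x GFP. At the shared label of 1x, the interferon level differed among these libraries, 1 for each virus. Of the 98 genes, 96 lay above their GFP level with Myf5 and 66 with MyoD. Over all genes compared in these contrasts, 51.6% and 49.8% had a log2 ratio above 0. The median log2 difference from GFP over all 98 was 1.25 with Myf5 and 0.22 with MyoD. Whether the virus preparations differed in anything besides the introduced gene was not tested.

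The steps within the MOI series were smaller than the Myf5 dose step on these genes. From an MOI of 15 to 30, 23 genes were higher (0.178%), of which 11 were in the interferon lists with a list median of 0.39. From 30 to 60, 6 were higher (0.046%), with 0 in the interferon lists and a list median of 0.11, and from 60 to 120, 38 were higher (0.29%), with 20 and 0.49. The Myf5 step had an interferon median of 1.03. It began from a lower level, since the 1x Myf5 library had a median log2 difference of -0.87 to an MOI of 15 over the 98 genes. The steps thus cover unlike stretches of the response, and the relation of 1x and 2x to MOI is not known. These MOI libraries were 17.9 to 22.4 M deep, shallower than the Myf5 pair, so fewer low genes could be counted there. The muscle lists had medians of -0.01, 0.01 and 0.01 over the 3 steps, and 0 members higher. Only 56, 57 and 58 of their 161 members had enough counts to be compared there, with 12, 13 and 13 of 70 for the sarcomere. The Myf5 pair had 108. With the small shares over all genes given above, few calls are to be looked for among so few members.

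The promoters of the 2 groups differed in the elements shown at the opening. Windows of 250 bases before to 50 after the start were searched on both strands. GAAA, any 2 bases and GAAA was found in 33 of 53 windows of the higher interferon-list genes (62.3%), in 0 of 33 of the higher muscle-list genes and in 3.44% of all 32851 windows. CAGCTG, one form of the E-box, was found in 15 of 33 muscle windows (45.5%), 8 of 53 interferon windows (15.1%) and 16.3% of all. It was also found in 17 of 53 windows (32.1%) of the lower genes, so it was not limited to the higher ones. The looser CANNTG, which includes CAGCTG, was found in 87.9%, 66.0% and 72.3%. Windows were matched by symbol for 26 of the 31 and 47 of the 64 genes. A match is only a run of letters and no binding was measured.

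The 68 lower genes were mostly of low level. Ifi27 was the highest of them at 1x. Add2 (a beta-adducin of the membrane skeleton) was at 1.19, 0.893 and 0.204 CPM with GFP, 1x and 2x, a ratio of 0.229 (0.118 to 0.414), and Hhip, which binds hedgehog ligands, at 0.429, 0.644 and 0.161 CPM. Of the 68, 18 (26.5%) were at least 2-fold below GFP with 1x MyoD, against 1.86% of all genes. Virus-raised genes made up 13 of the 68 (19.1%), against 5.54% of all. Kera, whose level did not rise with MOI, was 1 of them. In the listed programs the 2 lower members were Kera (keratocan, a matrix proteoglycan), at 7.07, 4.25 and 1.81 CPM, and Egr3, an immediate early factor, at 2.10, 1.33 and 0.540 CPM.

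Fibroblast genes other than Kera were within 2-fold between the doses. The summed level of 36 matrix and fibroblast genes was 43098 CPM with GFP, 37756 at 1x and 33252 at 2x. Of the 34 compared, 23 had an interval below 1 and 5 above, with a median log2 ratio of -0.21. Of all 14606 genes, 3469 had an interval below 1 and 3552 above. Col1a2, a chain of type I collagen, was at 5319, 4896 and 4283 CPM, and Col6a3, a chain of type VI collagen, at 704, 493 and 353 CPM. Of 34 cell-cycle genes 0 were higher or lower. Their median log2 ratio was 0.17 and 27 had an interval above 1, against 3552 of all 14606 genes. Aurka, a mitotic kinase, was at 24.5, 21.5 and 30.1 CPM and Ccnd1 (cyclin D1) at 233, 183 and 149.7 CPM. Whether these differences have a part in those of the muscle and interferon genes was not tested.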

How the data were processed

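Poly(A) RNA libraries of 10 samples of 1 gene table were used, 1 library for each label. The submitters' processing notes name CASAVA 1.8.2, the aligner TopHat2 2.0.8 and the genome build mm9. The counting tool, its annotation and its use of strand are not given in the sources used here, so a gene and its antisense partner cannot be told apart. The deposited values are expected counts, which are not whole for 2611 to 2767 genes in the 3 libraries (a value within 1e-06 of an integer counts as whole). Values were rounded to whole counts before all further steps, and the unrounded values served only to flag such genes. Of 37287 gene IDs, 32610 were paired with symbols through GENCODE vM21, and IDs without one held 1.26% to 1.32% of the counts. That annotation and the promoters (GRCm38.p6) are of another build than mm9, so no position of a counted gene is given. All 37 mitochondrial genes have 0 counts. No column was left unmapped.

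CPM, ratios, exact 95% binomial intervals and log2 ratios were computed in Python 3.11.15 (numpy 2.4.6, pandas 2.3.3, scipy 1.17.1). The prior count of 2 was scaled to library size. That scaling was chosen after seeing that an unscaled prior gave genes without counts a ratio between libraries of unequal depth. Calls required at least 50 counts over a pair and a fold of 2. TMM (edgeR 4.0.16) and DESeq2 1.42.0 size factors in R 4.3.3 were used as alternatives, and the ratio step was tested on simulated data. A floor of 3 counts (0.0438 CPM at 2x Myf5) limits what a count of 0 shows.

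The members and the gene lists (520 genes in 27 lists, of which 513 matched) were chosen with earlier results of these data known. Named were the 4 myogenic factors, the 10 largest ratios in each direction, and of each muscle or interferon list the 4 members of largest change and the 4 of highest CPM (2 and 2 in other lists). Others are said to be chosen after their values were seen. Not every gene so named is printed. The alternatives were other count minimums, prior counts, fold thresholds, scalings, baselines and sorting rules.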

Additional observations from a re-analysis of the deposited data

Results flagged for a closer look

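Gene lists were singled out where the median log2 ratio of 2x over 1x differed in sign between Myf5 and MyoD and by at least 1, and 1 gene was singled out as higher with Myf5 dose and lower with MyoD dose. The difference between the factors was not tested, since each dose is 1 library. The IFIT, Mx and ISG15 effectors had a median of 1.52 with Myf5 and -0.09 with MyoD. The OAS list had 3.26 and -0.03, with 3 of 6 genes above 0 with MyoD, so it did not go the other way there. The medians were 1.84 and -0.48 for the interferon-inducible GTPases and 1.72 and -0.23 for the Ifi200 family. Tgtp1, a GTPase with a near-identical copy in Tgtp2, had 2.76 with Myf5, from 2.02 to 13.8 CPM, and was at 1.29 and 0.469 CPM with 1x and 2x MyoD.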

How the results depend on the processing

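No paired analysis was possible because the labels carry no replicate numbers and each dose is 1 library, and for the same reason no library could be left out. No called value changed sign under any alternative run. Of the values recomputed for counts of genes, 111 stayed within 1.5 times and 61 did not. Of those for single genes, 613 stayed within their counting interval and 15 did not. Scaling by TMM or DESeq2 factors kept every count within 1.5 times, with 231 and 221 higher genes in the Myf5 pair, and moved the median of all genes by at most 0.02 (log2).

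The counts followed the thresholds. With a minimum of 10 counts, 200 counts or none, the Myf5 pair had 425, 141 and 515 higher genes and 249, 13 and 319 lower ones, and the MyoD pair 543, 196 and 624 higher and 349, 40 and 431 lower. With a fold of 1.5 or 3 the Myf5 pair had 443 and 102 higher and 350 and 14 lower, and the MyoD pair 728 and 125 higher and 707 and 12 lower. A prior count of 8 left 44 lower genes in the Myf5 pair. Muscle-list genes higher with Myf5 dose numbered 49 and 18 at these folds. The step from an MOI of 15 to 30 had 97, 12 and 126 higher genes at the 3 minimums and 113 and 1 at the folds. That from 30 to 60 had 67, 1 and 75, then 49 and 3, with 3 among IDs with a symbol and 1 with at least 25 counts in the first library. That from 60 to 120 had 94 at a minimum of 10 and 123 with none, then 137 and 2. An MOI of 120 over untransduced cells had 783 higher genes (5.61%), 484 at a minimum of 200, 1340 with none, and 1831 and 312 at the folds. The count for 1x Myf5 was 287 over 1x GFP (1.95%) and 538 over untransduced cells.

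The sorting of the higher genes was less stable. MyoD-raised only numbered 149, 40 and 176 at minimums of 10, 200 and none, and both classes 35 and neither 112 at 10, 3 in neither at 200, and 37 and 168 with no minimum. A sorting fold of 4 left 3 in both and 43 in neither, and a prior count of 8 left 13 in both. Sorting by 2x MyoD over untransduced cells gave 66 virus-raised only and 60 in both. Of the alternatives added after seeing the data, at least 25 counts at 1x gave 47 MyoD-raised only and 8 in neither, and a prior count not scaled to library size gave 44 MyoD-raised only and 55 in both. That prior gives genes without counts a ratio between the deeper untransduced library and the shallower MOI libraries.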

Other observations

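A few genes were present in 1 of the Myf5 libraries and at or near 0 in the other, chosen after their values were seen apart from those the naming rule gives. Gstp3 had 165 counts at 2x and none at 1x or with 1x GFP, and its place among the MyoD-raised genes rests on a level of 0.0248 CPM with 1x MyoD. Serpinb6c had 4 counts at 1x and 61 at 2x, and was at 1.38 CPM without virus. Gm11972 had 121 counts at 1x and 1 at 2x. All 3 have fractional counts, as for genes with near copies, so which copy they come from is uncertain.

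Delta-like 1 (Dll1), a Notch ligand, was at 1.14 CPM with GFP, 6.02 at 1x and 10.9 at 2x, a ratio of 1.81 (1.6 to 2.05), and at 30.9 and 58.0 CPM with 1x and 2x MyoD. Hes6, a Hes family gene of muscle and nerve precursors, was at 35.4, 44.5 and 49.4 CPM, and at 73.5 and 123 CPM with MyoD. Id4, an inhibitor of E-protein pairing, was at 2.97, 3.22 and 2.28 CPM, a ratio of 0.707 (0.572 to 0.872). Cdkn1a (p21, which stops the cell cycle in differentiating muscle) was at 303, 483 and 540.0 CPM, a ratio of 1.12 (1.10 to 1.14).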
